A study of Mus musculus with 10 samples.

Results

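Hras, Map2k7, Map3k2 and Mapk6, genes of Ras and mitogen-activated protein kinase (MAPK) signaling, were examined in hearts of young and aged male mice. Each of the 4 genes had 1 mRNA probe in the list that names the probes. The probes were selected by their measured difference between the age groups, since the authors list them as lower in aged hearts in a supplementary sheet, which names 690 probes in the copy used here. They are thus 4 of 16720 mRNA probes tested and of 60641 probes in the deposited table. Because the choice rests on the age comparison of these same arrays, the age differences of the 4 probes are given as a description and without p-values. The 3m group held 5 wild-type C57BL/6 males aged 3 months, and the 20m group held 5 wild-type C57BL/6 males aged 20 months, with no treatment in either. RNA of each heart was hybridized to its own one-colour array, and no samples were pooled. Young and aged animals came from different suppliers, so age and supplier cannot be told apart.

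Hras is a small GTPase that passes signals from growth factor receptors to the Raf kinases at the head of the extracellular signal-regulated kinase (ERK) cascade. MAPK cascades have tiers in which a MAP3K phosphorylates a MAP2K, which in turn phosphorylates a MAPK. Map3k2 (MEKK2) is a MAP3K that feeds the ERK5 and c-Jun N-terminal kinase (JNK) branches, Map2k7 (MKK7) is a MAP2K dedicated to JNK, and Mapk6 (ERK3) is an atypical MAPK that lacks the usual dual phosphorylation motif and signals through the kinase Mapkapk5. In the heart these branches are known for their part in hypertrophic growth and stress responses.

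Replicates 1 and 2 of the 3m group were scanned on 1 slide (slide 1), and replicates 3 to 5 of the 3m group together with all 5 arrays of the 20m group on another (slide 2). Slides were told apart by the scan time in the file headers, and the same array positions recur under both scan times. The 75th percentile of the background-subtracted intensity was between 129 and 209 in the 3m group and between 109 and 144 in the 20m group, without any saturated spots. The array carries control probes for both ends of the GAPDH transcript, whose signal at the 3-end over that at the 5-end, as a log2 ratio, was 1.98 ± 0.25 (SD, n = 5) in the 3m group and 2.59 ± 0.30 (SD, n = 5) in the 20m group. On slide 1 this ratio was 1.70 and 1.71, and on slide 2 it was 2.14 to 2.17 in young and 2.33 to 3.06 in aged hearts. None of the 47 marker genes listed for heart cells and for other cell types had a named probe, so the tissue label was not checked against markers.

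Each probe is a DNA oligonucleotide of 60 bases. A stretch of 30 bases is shown for 3 of the genes because the measurements rest on these oligonucleotides, with the letters CTGCC in capitals where they occur.
Hras (bases 1 to 30): aggagttgtccctggccctgtttgagagtt
Map2k7 (bases 10 to 39): tgtctttgtctaCTGCCctctaatgttaag
Mapk6 (bases 1 to 30): actgggaaaggtaccacgattgtcagttct
The GC content was 53.3% in the Hras probe, 48.3% in the Map2k7 and Map3k2 probes and 46.7% in the Mapk6 probe, and its median over the other 686 probes of the sheet was 43.3% (quartiles 35% and 51.7%). The sequence CCTGCC, searched on the strand of the probe, was in none of the 4 probes and in 23 of the other 686 (3.35%). The shorter CTGCC was in the Map2k7 probe and in 49 of the other 686 (7.14%). In the RefSeq annotation of GRCm38.p6 Hras lies on chromosome 7 from 141189934 to 141194019 on the minus strand, Map2k7 on chromosome 8 from 4238740 to 4247897 on the plus strand, and Mapk6 on chromosome 9 from 75386782 to 75410016 on the minus strand. Hras has 3, Map2k7 has 6, Mapk6 has 2 and Map3k2 has 1 curated RefSeq mRNA, and the position of the probes within these transcripts was not determined.

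All 4 probes had a lower mean in aged than in young hearts after quantile normalization, with log2 fold changes (20m over 3m) of -1.52 for Hras, -1.41 for Map2k7 and -1.43 for Mapk6, where the aged mean was 34.8% to 37.6% of the young mean on the geometric scale. The value of Map3k2, -1.61, is limited by the floor set on dim signals, and was -1.76 with a floor of 1 and -0.96 with a floor of 10. In 3 of the genes, Hras, Map2k7 and Mapk6, every aged heart lay below every young heart, and at Map3k2 the groups overlapped. Among all 16720 mRNA probes tested, every aged heart lay below every young heart at 16.2%, and every aged heart above every young heart at 8.28%. Limma called all 4 probes lower in aged hearts (an adjusted p below 0.05 together with a change of 1 or more on the log2 scale), as it did 9.65% of all mRNA probes tested, and the choice of the probes fixes the first of these counts. Of the 4, Hras alone was still called with the GAPDH end ratio of the array as a covariate. Every aged heart had a higher ratio than every young heart, so this fit cannot separate the ratio from age. Hras and Map2k7 alone were called under a normexp background correction with an offset. Map3k2 lost its call with a floor of 10, and Mapk6 lost its call under normexp without the offset. In bulk tissue, fewer cells of a type and less RNA per cell cannot be told apart.

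**Figure D1:**
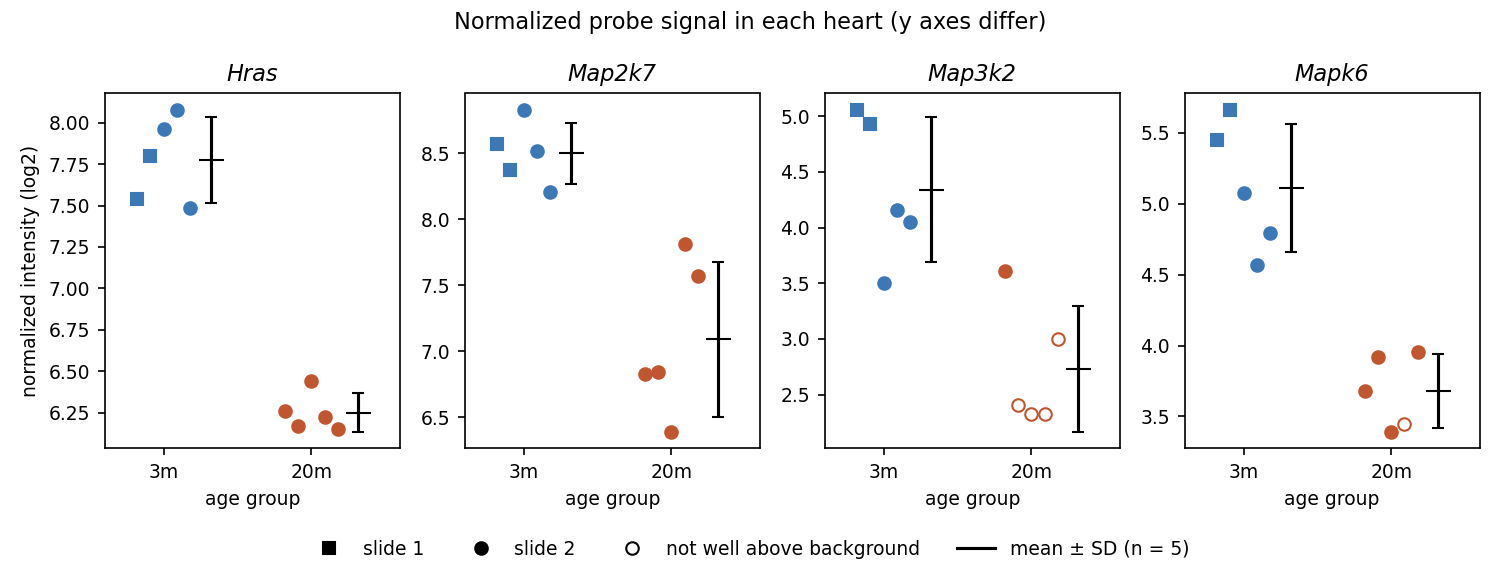
Quantile-normalized intensity on the log2 scale (y axis, a different range in each panel) of the probes of Hras, Map2k7, Map3k2 and Mapk6 in the 3m and 20m groups (x axis). Each point is 1 heart, squares are arrays of slide 1, circles are arrays of slide 2, open points were not well above background, and bars show mean ± SD (n = 5). The age groups overlap only at Map3k2, where 4 of the 5 aged hearts are open points.

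Hras, the upstream GTPase, showed the smallest spread among aged hearts. Its log2 normalized intensity in young hearts was 7.54, 7.80, 7.96, 8.08 and 7.49 for replicates 1 to 5. In aged hearts it was 6.26, 6.17, 6.44, 6.23 and 6.15. The lowest young heart was 1.05 above the highest aged heart on the log2 scale. The group means were 7.77 ± 0.26 and 6.25 ± 0.12 (SD, n = 5 each), and the log2 fold change was -1.52 (standard error 0.16), a 2.88-fold lower signal. The probe was well above background on all 10 arrays. Before normalization the background-subtracted intensity was 172 to 385 in young and 58.8 to 69.0 in aged hearts, so that the groups were separate on that scale too.

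Map2k7, the MAP2K of the JNK branch, had the highest SD among aged hearts, close to that of Map3k2. In young hearts its log2 normalized intensity was 8.57, 8.37, 8.83, 8.52 and 8.21 for replicates 1 to 5. In aged hearts it was 6.83, 6.85, 6.39, 7.82 and 7.57. Replicates 4 and 5 of the 20m group were thus the highest, and the highest of them was 0.39 below the lowest young heart. The means were 8.50 ± 0.23 and 7.09 ± 0.59 (SD, n = 5 each), and the log2 fold change was -1.41 (standard error 0.25). Relative to the young mean, the difference of single aged hearts lay between -2.11 and -0.69 on the log2 scale. All 10 arrays were well above background for this probe, with background-subtracted intensities of 298 to 643 in young and 63.6 to 182 in aged hearts. The aged heart with the highest GAPDH 3-end to 5-end ratio (3.06, replicate 3) had the lowest Map2k7 value. The aged heart with the lowest ratio (2.33, replicate 4) had the highest. Among aged hearts, the same log2 ratio for the PGK1 control was also highest in replicate 3 (9.27). It was lowest in replicate 1 (8.98), whose Map2k7 value was 6.83, and was 9.12 in replicate 4. The part of transcript end bias in the Map2k7 difference was not tested directly, and with the GAPDH ratio as a covariate the log2 fold change was -0.80 (standard error 0.35).

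Map3k2, the MAP3K, had aged signals at or near background, so the size of its fold change depended on the floor. The gene lies on the plus strand of chromosome 18. In young hearts its log2 normalized intensity was 5.06, 4.93, 3.51, 4.16 and 4.05 for replicates 1 to 5. In aged hearts it was 3.61, 2.41, 2.32, 2.32 and 3.00, where 2.32 is the floor of 5 that was set on the linear scale. Replicate 3 of the 3m group (3.51) lay below replicate 1 of the 20m group (3.61), so that the groups overlapped. All 5 young hearts and 1 of the 5 aged hearts were well above background, and the means of 4.34 ± 0.65 and 2.73 ± 0.57 (SD, n = 5 each) rest in part on signal that the scanner software did not separate from background. The log2 fold change was -1.61 (standard error 0.33). With the floor of 10 the probe was not called lower. Before normalization the groups did not overlap, with background-subtracted intensities of 15.4 to 28.1 in young and 2.84 to 11.7 in aged hearts. The median spot intensity was 40.0 to 48.0 over a local background of 20.0 to 22.0 in young hearts, and 22.0 to 32.5 over 18.0 to 21.0 in aged hearts.

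Mapk6, the atypical MAPK, was also dim in aged hearts. In young hearts its log2 normalized intensity was 5.45, 5.66, 5.08, 4.57 and 4.79 for replicates 1 to 5. In aged hearts it was 3.68, 3.92, 3.39, 3.45 and 3.96. The lowest young heart was 0.61 above the highest aged heart. The means were 5.11 ± 0.45 and 3.68 ± 0.26 (SD, n = 5 each), and the log2 fold change was -1.43 (standard error 0.22). The probe was well above background on all 5 arrays of young hearts and on 4 of the 5 of aged hearts. Its median spot intensity was 53.0 to 71.0 in young and 30.0 to 42.5 in aged hearts, over local backgrounds of 17.0 to 20.0 and 18.0 to 20.0.

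**Figure D2:**
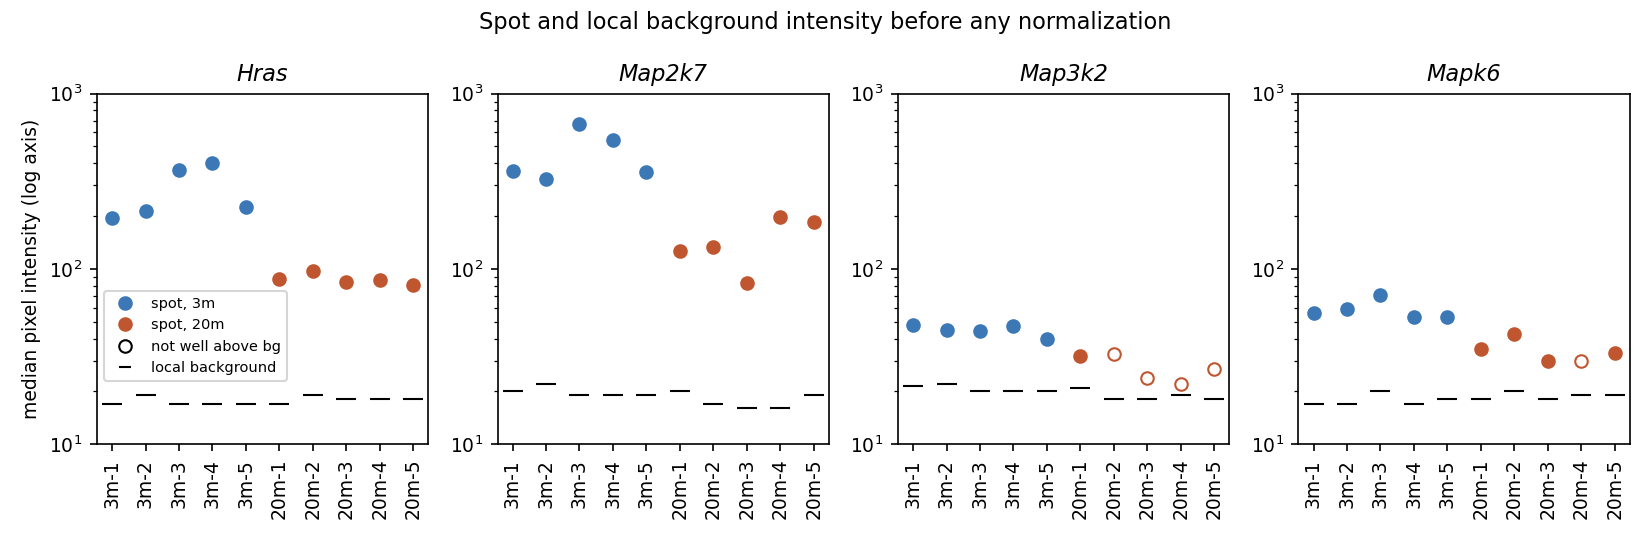
Median pixel intensity of the spot (points) and of its local background (dashes) on each array, on a log axis and before any normalization, for the probes of Hras, Map2k7, Map3k2 and Mapk6. The spots of Hras and Map2k7 stand clear of the background on all 10 arrays, whereas those of Map3k2 in aged hearts reach down to 22.0 beside a local background of 19.0.

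The 4 probes did not vary alike among hearts of 1 age. For Map3k2 and Mapk6 the young hearts of slide 1 were the highest of all, with means of 5.00 and 5.56 against 3.91 and 4.81 for the young hearts of slide 2, a difference of 1.09 and 0.74 on the log2 scale. For Hras and Map2k7 the same difference was -0.17 and -0.05. Within slide 2, which holds 3 young and 5 aged hearts, the log2 fold changes were -1.59 for Hras, -1.43 for Map2k7, -1.17 for Map3k2 and -1.13 for Mapk6. That of Map3k2 again depends on the floor, since 1 of the 5 aged hearts was well above background. Slide 1 holds no aged heart, so it gives no value of its own. No young heart was above the young mean at all 4 genes, and replicate 5 of the 3m group was below it at all 4. Among aged hearts, replicates 1 and 5 were above the aged mean at 3 genes, and replicates 2, 3 and 4 below it at 3 genes.

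The GAPDH ratio of transcript ends moved with slide and with age, as did the signal of 2 of the probes. On the arrays with ratios of 1.70 and 1.71 Map3k2 and Mapk6 had their 2 highest values. The highest Hras values, 7.96 and 8.08, were on arrays of slide 2 with ratios of 2.14 and 2.16, and the aged heart with the highest ratio had the highest Hras value of the 20m group. No young heart had a ratio above 2.17 and no aged heart one below 2.33, so the ratio and age cannot be told apart, and the part of the ratio in the Hras difference was not tested. With the GAPDH ratio as a covariate the log2 fold change was -1.73 for Hras (standard error 0.22), -0.73 for Map3k2 (standard error 0.44) and -0.90 for Mapk6 (standard error 0.29), and the calls of Map2k7, Map3k2 and Mapk6 were lost.

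**Figure D3:**
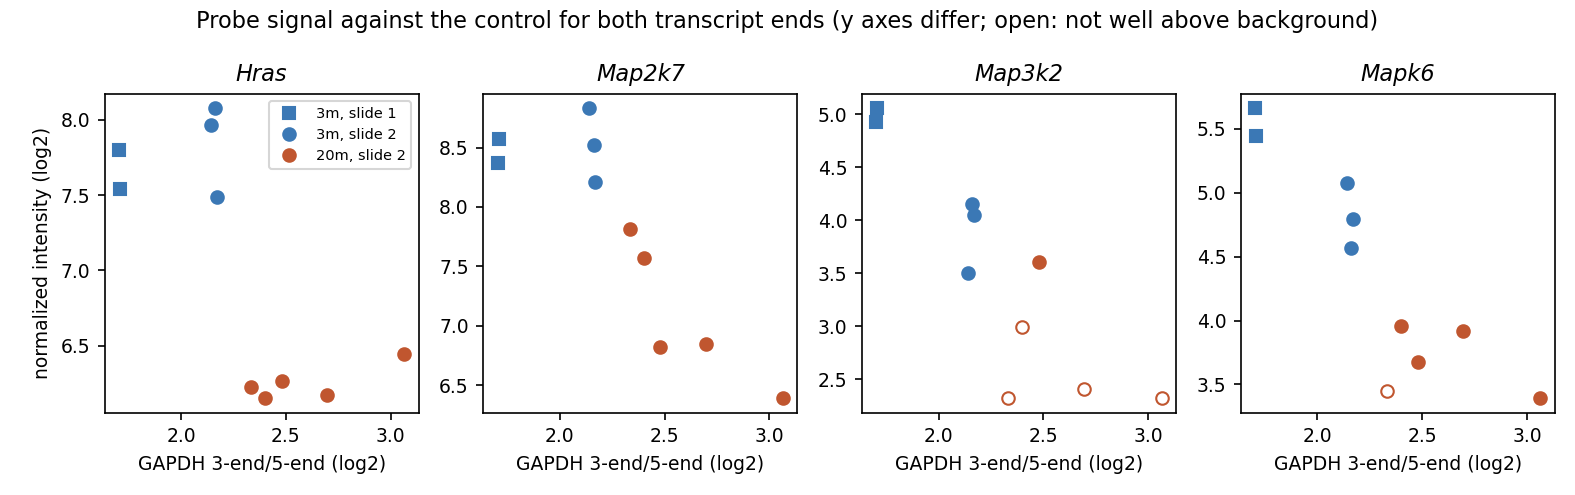
Quantile-normalized log2 intensity of each probe (y axis, a different range in each panel) against the log2 ratio of the GAPDH 3-end to 5-end control signal of the array (x axis), for 10 hearts. Squares are young hearts of slide 1, blue circles young hearts of slide 2 and red circles aged hearts, and open circles were not well above background. Every aged heart has a higher ratio than every young heart, and Hras in aged hearts stays between 6.15 and 6.44 over ratios from 2.33 to 3.06.

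The median log2 fold change was -1.48 over the 4 probes, -1.63 over the 690 probes of the sheet they came from, -1.31 over the 1613 probes called lower and -0.05 over all 16720 mRNA probes tested. The weakest probe of the sheet had a log2 fold change of -1.35, so the choice of the probes set how near to 0 their values could lie. The copy of the sheet ends near there, so genes of the pathway with smaller decreases could not be named.

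**Figure D4:**
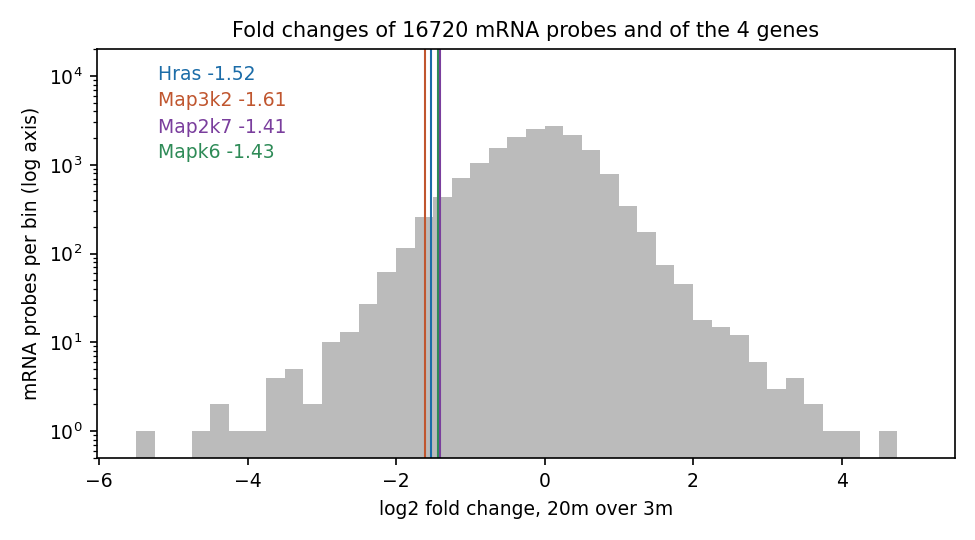
Number of mRNA probes (log axis) per bin of 0.25 of the log2 fold change, 20m over 3m, for 16720 probes, with vertical lines at the values of Hras, Map2k7, Map3k2 and Mapk6. The lines lie between -1.61 and -1.41, inside the lower flank of the distribution and far from its lowest value of -5.30.

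Of the 178 genes on a list of the MAPK cascade, from receptor tyrosine kinases to transcription factors, 7 had a named mRNA probe, and all 7 were called lower because the sheet holds lower probes only. Tek, detected in none of the aged hearts, and Map3k2, detected in 1 of 5, passed the detection filter through the young hearts. The list had 1 named probe of 8 genes among Ras family GTPases (Hras), 1 of 16 among Ras exchange factors and GTPase activators (Rasgrp3), 1 of 20 among receptor tyrosine kinases (Tek), 1 of 24 among MAP3Ks (Map3k2), 1 of 7 among MAP2Ks (Map2k7), 1 of 14 among MAPKs (Mapk6) and 1 of 7 among partners of Mapk6 (Ncoa3). The list's receptor adaptors, MAP4 kinases, 9 scaffolds, MAPK-activated kinases, phosphatases and transcription factor targets had none. Among all mRNA probes, 4.00% were called higher and 9.65% lower, and the remaining genes of the list could not be matched to a probe here.

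Upstream of Ras, Rasgrp3, an exchange factor that loads Ras proteins with GTP, had mean log2 values of 6.17 ± 0.37 in young and 4.31 ± 0.47 in aged hearts (SD, n = 5 each). Its young hearts lay between 5.86 and 6.59 and its aged hearts between 3.86 and 5.00, without overlap, and the log2 fold change was -1.86 (standard error 0.25). Tek, the angiopoietin receptor of endothelial cells, had 4.06 to 5.03 in young hearts and did not reach the well-above-background mark in any aged heart. An aged level was set, per array, to the dimmest detected signal or that of the Tek probe if brighter. Against it the young mean over both slides (4.54) was 2.23-fold higher, which is not a lower limit. The young mean on slide 2, which holds all aged hearts, was 4.23. Ncoa3, a nuclear receptor coactivator that Mapk6 phosphorylates, had means of 5.70 ± 0.35 and 4.23 ± 0.61 (SD, n = 5 each), and the log2 fold change was -1.46 (standard error 0.28), with 4 of the 5 aged hearts well above background. Like Map3k2 and Mapk6, these 3 probes had higher young means on slide 1 than on slide 2, by 0.68 for Rasgrp3, 0.78 for Tek and 0.59 for Ncoa3 on the log2 scale. All 3 lost their calls under normexp with the offset and with the GAPDH ratio as a covariate.

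The probes most like each gene within the age groups were sought among the other 689 named probes, by the Pearson correlation of deviations from the age-group means over the 10 arrays. For Hras these were Rnf31 (0.95), Gm10447 (0.93) and Cenpu (0.93). For Map2k7 they included Zfp280d and Pter, each with 0.97. For Map3k2 they were Cfap97 (0.93), Zfp24 (0.92) and Tagap (0.92), and for Mapk6 Ing3 (0.94), Rictor (0.93) and Gnptab (0.93). No gene was among the first 3 of more than 1 of the 4 probes. These are the highest values of a search over all named probes, and the arrays share slides and RNA quality, so they only describe which probes ran alongside.

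RefSeq promoter windows of 300 bases (250 before and 50 after a transcription start) were at hand for Hras (1), Map2k7 (2) and Mapk6 (2). The letters before the starts of Hras and Mapk6 hold GC boxes, the binding motif of Sp1-type factors. Their number was not compared with that in windows of like GC content. The 250 bases before the start follow, with GGGCGG and its reverse complement CCGCCC in capitals.
Hras, chr7:141194005-141194254, minus strand of GRCm38.p6: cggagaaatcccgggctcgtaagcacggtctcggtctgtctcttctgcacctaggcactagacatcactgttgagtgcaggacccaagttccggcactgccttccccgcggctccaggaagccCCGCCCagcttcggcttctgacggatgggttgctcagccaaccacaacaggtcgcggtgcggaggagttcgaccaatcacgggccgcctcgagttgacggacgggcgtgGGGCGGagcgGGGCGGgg
Mapk6, chr9:75410017-75410266, minus strand of GRCm38.p6: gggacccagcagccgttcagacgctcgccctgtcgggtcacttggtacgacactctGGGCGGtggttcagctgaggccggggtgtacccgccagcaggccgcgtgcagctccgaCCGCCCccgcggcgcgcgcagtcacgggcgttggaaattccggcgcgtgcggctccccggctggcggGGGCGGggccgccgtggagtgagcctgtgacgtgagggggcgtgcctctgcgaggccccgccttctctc
GGGCGG was searched on both strands of the whole windows. It occurred 3 times in the Hras window, 3 times in each Mapk6 window, once in the first Map2k7 window and not in the second, and it was in 35.7% of all 32851 windows. The GC content was 69.0% at Hras, 73.7% at both Mapk6 windows, 58.0% and 45.7% at the Map2k7 windows and 52.7% in the median window. TATAAA, searched on both strands, was in the second Map2k7 window only, on the strand opposite to the gene, and in 13.6% of all windows. The AP-1 motif TGACTCA, on either strand, was in none of the 5 windows and in 5.20% of all windows. CCAAT, on either strand, was in the Hras window only and in 37.4% of all windows. No binding was measured in these samples.

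Under 14 alternatives for Hras and Map2k7 and 13 for Map3k2 and Mapk6, and with each array left out in turn, every log2 fold change was below 0. The choice of the probes as lower in these same arrays favours that sign. For Hras, changed floors, changed detection filters and the replicate block left the value at -1.52. The slide block gave the same value as slide 2 alone (-1.59). With 1 array left out the values lay between -1.60 and -1.45 for Hras, -1.59 and -1.24 for Map2k7, -1.84 and -1.44 for Map3k2 and -1.56 and -1.28 for Mapk6. When background was corrected by normexp on median intensities, with an offset of 50 that compresses dim signals, the values were -1.03, -1.07, -0.29 and -0.38 for Hras, Map2k7, Map3k2 and Mapk6. With the GAPDH ratio as a covariate, the values of Map2k7, Map3k2 and Mapk6 moved towards 0 and that of Hras moved away from it.

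**Figure D5:**
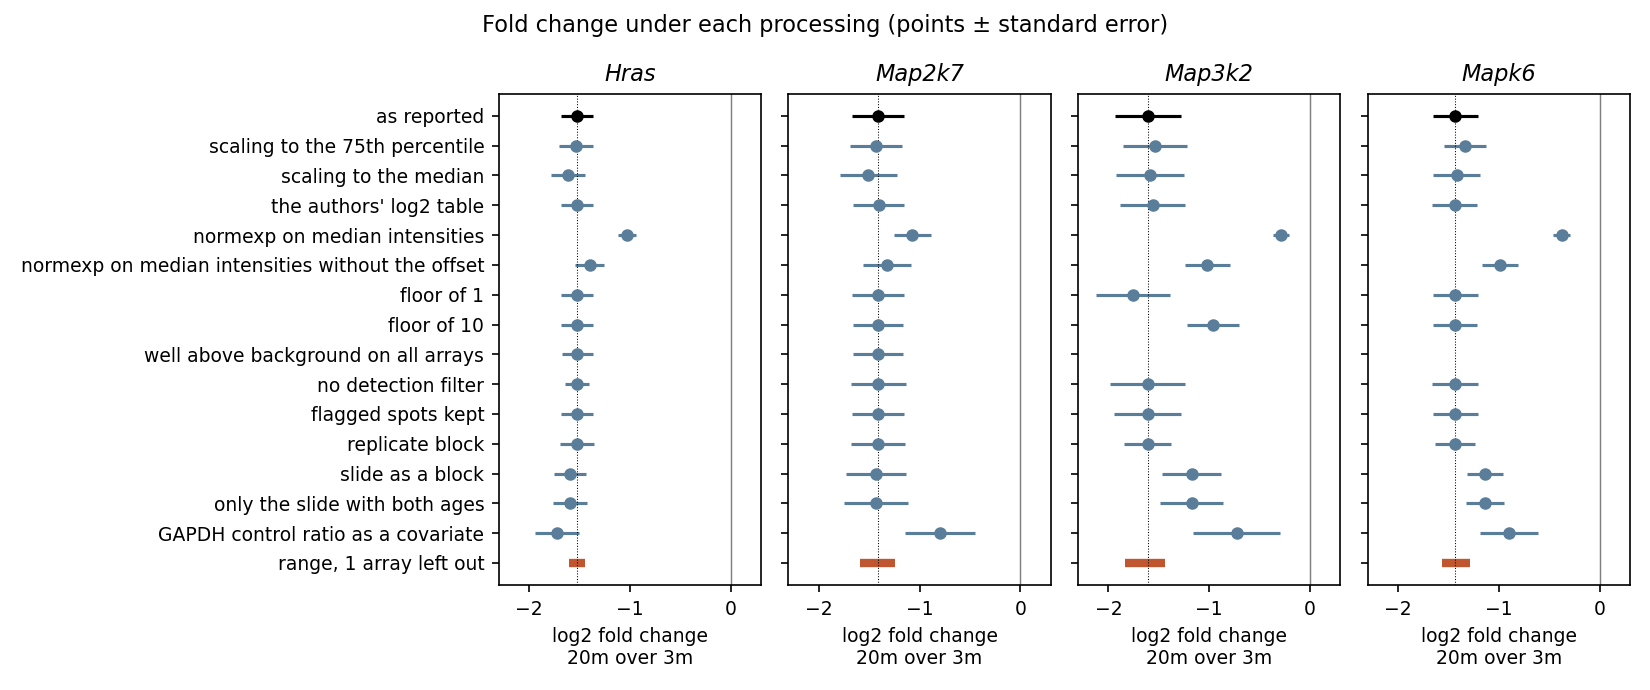
Log2 fold change, 20m over 3m (x axis), of each gene under each processing (rows), as points with the standard error, with the range over 10 arrays left out in turn as the lowest bar. The dotted line marks the value as reported, and Map3k2 and Mapk6 move furthest towards 0 under normexp with the offset, to -0.29 and -0.38.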

How the data were processed

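Heart RNA of 10 mice was measured on 10 Agilent one-colour arrays. The authors deposited scanner files with intensity values (background-subtracted by Agilent Feature Extraction 11.0.1.1 per the file headers, 9.1 in the submitters' processing notes), and a table of quantile-normalized log2 values, as well as flags per spot. From the intensities of 60641 probes, spots marked as outliers (0 to 14 per array) were set to missing, and the rest were quantile-normalized, floored at 5 and log2-transformed. Probes that were well above background on 5 or more arrays (41242) were fitted with limma 3.58.1 in R 4.3.3, with Benjamini-Hochberg adjustment within mRNA probes. Replicate numbers did not pair the samples. The model was tested on simulated data. Gene symbols and probe sequences came from supplementary sheets; 672 of 690 listed genes matched RefSeq by symbol, all overlapping their GRCm38 span. Members and lists were chosen with earlier results of these data known. Named besides the members are cascade-list genes with a called named probe, and the 3 probes most like each member, of which 1 is not reported here. Arrays give no count depth, and their number limits the precision. Alternatives covered scaling, background correction, floor, filter, flagged spots, blocks, covariate, test, fold limit and left-out arrays. P-values rest on the spread between mice, 1 array each, which in the 3m group includes any difference between the slides. Plots used Python 3.11.15, numpy 2.4.6, pandas 2.3.3 and matplotlib 3.10.9.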

Additional observations from a re-analysis of the deposited data

Results flagged for a closer look

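In aged hearts Ncoa3 was 3.15 on the log2 scale in replicate 3 of the 20m group, far below the other aged hearts, and this was the only aged heart in which the probe was not well above background, so the distance is not a measured one. The gap to the nearest of them was 0.84 of the range of the group, above the critical value of 0.71 for 5 samples. Of the 14 groups examined this way, for 7 probes in 2 age groups, chance would set apart about 1 in 20. Replicate 3 also had the highest GAPDH end ratio of all arrays (3.06), and the part of that ratio in the Ncoa3 value was not tested.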

How the results depend on the processing

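As the choice of the probes favours, all log2 fold changes of Hras, Map2k7, Map3k2 and Mapk6 stayed below 0. They moved by more than the SD within age groups, pooled over both groups, under normexp with the offset for Hras (-1.03), Map3k2 (-0.29) and Mapk6 (-0.38), under normexp without the offset, an alternative chosen after seeing the data, for Mapk6 (-0.99), with a floor of 10 for Map3k2 (-0.96), and with the GAPDH ratio as a covariate for Hras (-1.73), Map2k7 (-0.80), Map3k2 (-0.73) and Mapk6 (-0.90). The cause was not tested, beyond the compression of dim signals that an offset and a higher floor bring by construction. Map3k2 and Mapk6 were not tested when all arrays had to be well above background. With arrays left out in turn, mRNA probes called higher ranged from 578 to 769 and lower from 1347 to 1846, and the 7 named cascade probes stayed called. Over all mRNA probes tested, 669 were called higher and 1613 lower, and these totals were 247 and 547 under normexp with the offset, 557 and 1073 within slide 2, 536 and 531 with the GAPDH covariate, and 2124 and 3695 with no fold limit. Of the 7 named cascade probes, 2 (Hras and Map2k7) were called under normexp with the offset, 3 of the 3 tested with all arrays above background, and 1 (Hras) with the GAPDH covariate. Replicate numbers are shared between the age groups, but deviations of same-numbered samples correlated between -0.36 and 0.27, so they were not treated as pairs. With the replicate block 669 probes were called higher and 1612 lower, and 1 of 5 young hearts correlated best with its own number. The log2 fold change of Hras was then -1.52 with a standard error of 0.17. The block changed the standard error from 0.25 to 0.27 for Map2k7, from 0.33 to 0.23 for Map3k2 and from 0.22 to 0.20 for Mapk6.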

Other observations

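Among the named lower probes were further genes near Ras and MAPK signaling, which were picked by their symbols after the sheet had been read and are described without a test. Fgf1, a growth factor that signals through receptor tyrosine kinases to Ras, had mean log2 values of 13.85 ± 0.40 in young and 11.98 ± 0.31 in aged hearts (SD, n = 5 each), and the log2 fold change was -1.87, with no overlap between the age groups. Spag9 (JIP4), a scaffold of JNK and p38 kinases that is not among the scaffolds of the cascade list, went from 10.85 ± 0.18 to 9.23 ± 0.57 (SD, n = 5 each), and the log2 fold change was -1.62. Prkce (protein kinase C epsilon) went from 13.06 ± 0.31 to 11.64 ± 0.48 and Rasl11b, a Ras-like GTPase, from 6.06 ± 0.56 to 4.37 ± 0.56 (SD, n = 5 each). These 4 probes were well above background on all 10 arrays. Within slide 2 the log2 fold change was -1.88 for Fgf1, -1.51 for Spag9, -1.28 for Prkce and -1.29 for Rasl11b. Rapgef6, an exchange factor for Rap GTPases, was well above background in all 5 young hearts, at 4.01 to 4.64 on the log2 scale, and in 1 of the 5 aged hearts, so no fold change is given.

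A lncRNA listed under Flt1, a receptor tyrosine kinase gene of the cascade list, had mean log2 values of 13.22 ± 0.47 in young and 10.34 ± 0.21 in aged hearts (SD, n = 5 each). Its log2 fold change was -2.89, and it was well above background on all 10 arrays.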
